A study of Arabidopsis thaliana with 18 samples.

Results

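The genes described here are the Arabidopsis thaliana genes of the cytochrome P450 subfamilies CYP71A and CYP71B. They were chosen by name from the RefSeq annotation: every protein-coding gene whose symbol or synonym begins with CYP71A or CYP71B followed by a number, apart from 1 CYP71B gene that the rule left out. This gave 49 genes, 16 CYP71A and 33 CYP71B, of the 27444 protein-coding genes on the 5 nuclear chromosomes. The rule itself used only names, but it was set with earlier results of these data known. The CYP71 clan also holds many other P450 families, so the 49 genes are 2 subfamilies of it and not the clan as a whole.

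Peaks of histone acetylation came from chromatin immunoprecipitation with sequencing, done on seedlings of the Columbia (Col) accession, 10 days old and grown at 23 °C in 16 h of light and 8 h of dark. The groups were WT, the histone deacetylase mutant hda9-1 and the mutant pwr-2, which lacks a functional POWERDRESS, a SANT-domain protein that acts with HDA9. Each genotype had 2 libraries for H3K9ac and 1 for H3K14ac, and the 9 input samples were not analysed here. The hda9-1 samples, so named in their genotype labels, carry "hdac" in their titles. The labels do not say whether the 2 H3K9ac libraries of a genotype came from separate plants, so their spread may be technical, and each mutant was represented by 1 allele.

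Cytochrome P450 enzymes of plants are membrane-bound monooxygenases that take electrons from a P450 reductase and put oxygen into small molecules. The CYP71A and CYP71B subfamilies grew by tandem duplication, and their best known members work in specialised metabolism, in indolic defence compounds and terpenoids. Acetylation of H3K9 and H3K14 is typical of transcribed chromatin at the start of genes, and a histone deacetylase removes such marks.

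The deposited data are lists of peaks with the number of reads in each, called in each library separately. Depth differed by group: peaks of the H3K9ac libraries held 1948253 and 2223676 reads in WT, 12265470 and 18171153 in hda9-1, with 3757931 and 8873855 in pwr-2. The H3K14ac peaks held 667780 reads in WT, 875104 in hda9-1, with 1090139 in pwr-2. In WT, all 5 green seedling marker genes carried H3K9ac, while none of the 5 maturing seed genes and none of the 4 pollen and tapetum genes did. In the mutants, H3K9ac marked 4 and 5 of the green seedling genes in hda9-1, with 4 in both pwr-2 libraries. It also marked 1 maturing seed gene in the first pwr-2 library and 1 pollen and tapetum gene in the second hda9-1 library. H3K14ac marked 0 of the 5 green seedling genes in WT, 1 in hda9-1 and 1 in pwr-2, and none of the other marker genes. RNA was not measured here, and in whole seedlings a mark on fewer cells and a weaker mark in each cell cannot be told apart. The sources used here do not say how reads matching several near-identical gene copies were placed, so values of close tandem copies are uncertain.

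A gene was called marked in a library where 50% or more of its first or last 500 bp lay in peaks. Cover is the length of a gene, in base pairs, that lay inside peaks. The 49 genes were 1447 to 3587 bp long, with a median of 1947 bp.

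H3K9ac marked 25 to 30 of the 49 CYP71A and CYP71B genes, depending on the library. In WT, 26 and 30 of the 49 genes were marked in the 2 libraries, or 53.1% and 61.2%, against 49.5% and 53.0% of all protein-coding genes. In hda9-1, 26 and 27 genes were marked, 53.1% and 55.1%, against 57.4% and 60.2% of protein-coding genes. In pwr-2, 25 and 26 were marked, 51.0% and 53.1%, against 51.7% and 56.8%. The number of marked genes was thus 28.0 ± 2.83 in WT, 26.5 ± 0.707 in hda9-1 and 25.5 ± 0.707 in pwr-2 (SD, n = 2 each), and the mutant libraries lay at or below the lower WT library except for 1 hda9-1 library, which lay between both WT libraries. Among the 15144 protein-coding genes in the same range of lengths the shares were higher, 57.1% and 61.1% in WT, 65.1% and 68.2% in hda9-1, with 58.8% and 64.9% in pwr-2, and the 49 genes lay below them in 5 of the 6 libraries. With 2 libraries against 2, no exact permutation test of these counts can reach a p of 0.05.

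**Figure D1:**
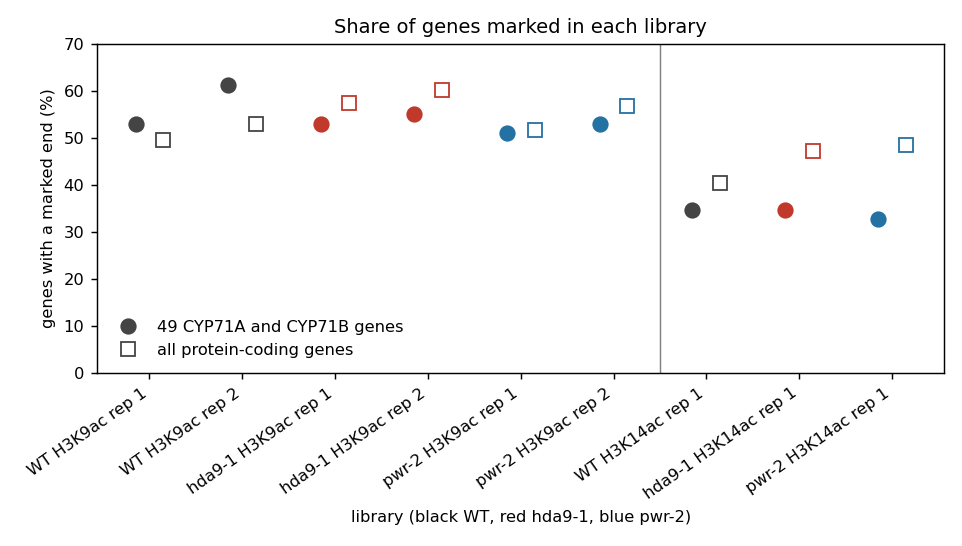
The y axis gives the percentage of genes with a marked end in each of the 9 libraries; filled circles are the 49 CYP71A and CYP71B genes, open squares all protein-coding genes, and the vertical line separates H3K9ac from H3K14ac. The circles lie above the squares in both WT H3K9ac libraries (53.1% against 49.5%, 61.2% against 53.0%) and below them in the other 7 libraries.

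H3K14ac was less frequent on these genes. It marked 17 of 49 genes in WT, 17 in hda9-1, with 16 in pwr-2, or 34.7%, 34.7% and 32.7%. Among all protein-coding genes the shares were 40.3%, 47.3% and 48.5%. With 1 H3K14ac library per genotype these differences have no replicate check.

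Where H3K9ac was present, it covered most of the gene. In WT the median marked CYP71A or CYP71B gene had 79.8% and 88.7% of its length in peaks, against 53.7% and 58.3% for the marked genes among 15144 protein-coding genes in the same range of lengths. The medians were 100% in both hda9-1 libraries, against 54.5% and 61.5%. In pwr-2 they were 100% and 95.6%, against 47.4% and 54.5%. H3K14ac showed the same order, with medians of 80.8% in WT, 72.2% in hda9-1, with 66.8% in pwr-2, against 42.8%, 39.1% and 43.2%. Marked genes of the 2 subfamilies were therefore covered over a larger part of their length than marked genes of similar length in each of the 9 libraries, which is a description of these genes and was not tested.

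At the median, the peaks that overlapped these genes were wider and thinner than all peaks of their library. They were picked by overlap with a gene, which favours wide peaks, and peaks over other genes were not compared. Their median width was 2800 and 3200 bp in WT, 4600 and 4500 bp in hda9-1, with 3700 and 3300 bp in pwr-2 for H3K9ac, while the median of all peaks of these libraries was 1400 to 1600 bp. Reads per base pair of the median peak over these genes were 0.861 and 0.890 times the median of all peaks in WT, 0.783 and 0.851 times in hda9-1, and 0.755 and 0.835 times in pwr-2. Of the 21 and 25 such peaks in WT, 17 and 22 were less dense than the library's median peak. For H3K14ac the ratios were 0.755, 0.744 and 0.748. The least dense peak of a list lay at 0.467 to 0.514 times the median for H3K9ac and at 0.373 to 0.472 times for H3K14ac.

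**Figure D2:**
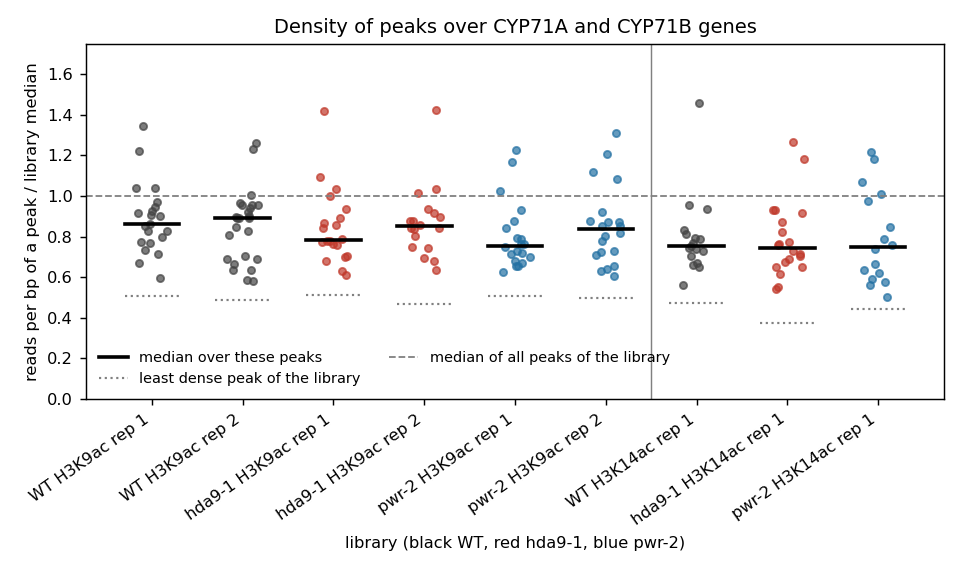
Each point is 1 peak over a CYP71A or CYP71B gene; the y axis is its reads per base pair divided by the median of all peaks of that library, shown by library on the x axis. Black bars are the medians over these peaks, from 0.744 to 0.890, all under the dashed line at 1, and dotted lines mark the least dense peak of each library.

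The genes fell into 3 classes. In all 6 H3K9ac libraries, 21 genes were marked (42.9%, against 39.8% of protein-coding genes). No H3K9ac library marked 15 genes (30.6%, against 31.8%), and 13 were marked in some libraries only (26.5%, against 28.4%). The split differed by subfamily: 17 of 33 CYP71B genes were marked in all 6 libraries and 9 in none, while 4 of 16 CYP71A genes were marked in all 6 and 6 in none.

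Both marks were present in all 9 libraries on 9 genes, CYP71B2, CYP71B28, CYP71B6, CYP71B19, CYP71B20, CYP71B34, CYP71B35, CYP71A22 and CYP71A21. That is 18.4% of the 49, against 25.2% of protein-coding genes. CYP71B6 (AT2G24180, 2018 bp), which oxidises indole-3-acetonitrile towards indole-3-carboxylic acid, had 1683 and 1400 bp in H3K9ac peaks in WT and was covered whole, 2018 bp, in both hda9-1 and both pwr-2 libraries. Its H3K14ac cover was 2018 bp in WT, 1935 bp in hda9-1, with 1600 bp in pwr-2. All 4 mutant H3K9ac libraries thus lay above both WT libraries, while the single H3K14ac libraries ran the other way.

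CYP71A13, CYP71B4 and CYP71B26 were marked in all 6 H3K9ac libraries and in no H3K14ac library (6.12% of the 49 genes, against 4.12% of protein-coding genes). H3K14ac cover was 0 bp in all 3 libraries for CYP71A13 and CYP71B4, while CYP71B26 had 600 bp in WT and 1400 bp in both mutants, mostly away from its ends. CYP71A13 (AT2G30770, 2080 bp) and its tandem copy CYP71A12 (AT2G30750, 1886 bp) both convert indole-3-acetaldoxime to indole-3-acetonitrile on the route to camalexin. H3K9ac covered 1092 and 1692 bp of CYP71A13 in WT, 1092 and 1492 bp in hda9-1, with 1092 and 692 bp in pwr-2. CYP71A12 had 0 bp in every one of the 9 libraries, so the copies of this pair differed in all 6 H3K9ac libraries. In each of the 6, the peak over CYP71A13 also overlapped AT2G30760 and AT2G30766. Only 24.7% to 47.0% of that peak lay in CYP71A13, so the signal may belong in part to these neighbours. CYP71A18 (AT1G11610), their close relative on chromosome 1, also had 0 bp in all 9.

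Cover was 0 bp in all 9 libraries for 10 genes, or 20.4%, against 23.7% of protein-coding genes: CYP71A18, CYP71A12, CYP71B16, CYP71A26, CYP71B30P, CYP71B31, CYP71B32, CYP71A15, CYP71A14 and CYP71B8. CYP71B31 (AT3G53300), which oxidises linalool in flowers, is among them, and CYP71B30P is named as a pseudogene but is annotated as protein-coding. Of these 10 genes, 6 had no flanking gene marked in both WT libraries, 3 had 1 and 1 had both. The nearest WT H3K9ac peak, averaged over the 2 libraries, lay 1057 to 6518 bp from them.

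**Figure D3:**
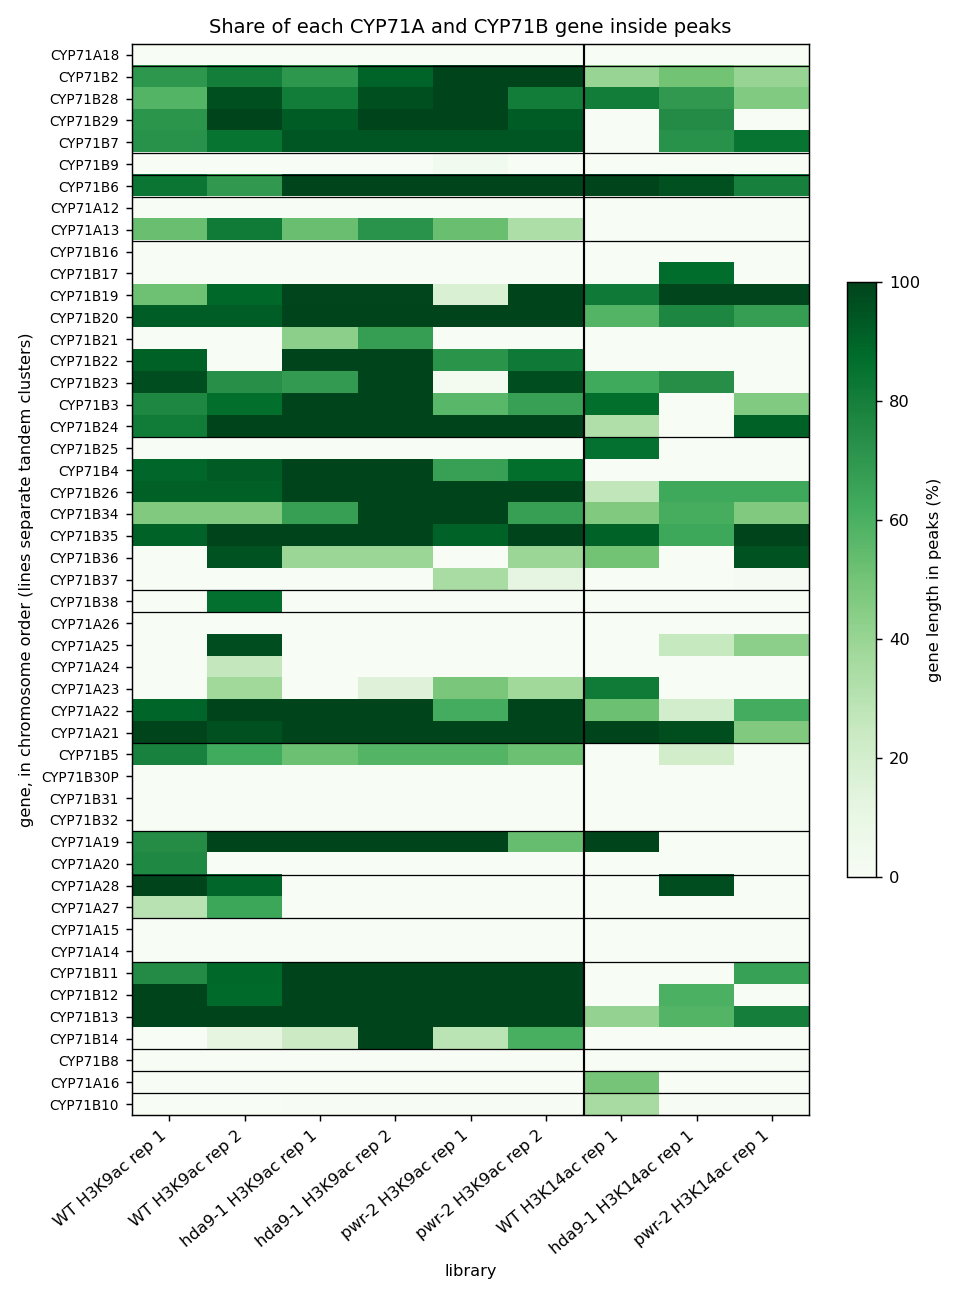
Rows are the 49 genes in chromosome order with horizontal lines between tandem clusters, columns are the 9 libraries with a vertical line between H3K9ac and H3K14ac, and the shade is the percentage of the gene inside peaks. Most rows are either dark or blank across all 6 H3K9ac libraries, with 21 genes marked in all 6 and 15 in none.

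Of the 49 genes, 42 lay in 10 tandem clusters with gaps of at most 20000 bp between neighbours, and 7 stood alone. The 6 clusters of 4 or more genes held 34. Of 32 pairs of consecutive CYP71A or CYP71B genes in clusters, some with other genes between them, 17 had the same H3K9ac call in all 6 libraries. In 4 pairs, 1 gene was marked in all 6 and the other in none: CYP71A12 and CYP71A13, CYP71B17 and CYP71B19, CYP71B25 and CYP71B4, and CYP71B5 and CYP71B30P. Between CYP71A12 and CYP71A13 lie 2 other protein-coding genes.

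The 4 genes CYP71B2, CYP71B28, CYP71B29 and CYP71B7 on chromosome 1 formed a cluster that was marked throughout. H3K9ac covered 68.0% and 89.8% of their summed length in WT, 84.4% and 95.1% in hda9-1, with 98.6% and 92.3% in pwr-2. The means of 78.9% ± 15.4, 89.8% ± 7.61 and 95.4% ± 4.45 (SD, n = 2 each) had overlapping libraries between WT and hda9-1, while both pwr-2 libraries lay above both WT libraries. H3K14ac covered 29.2% in WT, 66.4% in hda9-1, with 42.9% in pwr-2.

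The largest cluster holds 9 genes, CYP71B16 to CYP71B24, over 34.4 kb of chromosome 3. H3K9ac covered 59.3% and 53.4% of its gene length in WT, 71.5% and 78.4% in hda9-1, with 40.5% and 65.8% in pwr-2. With all peaks, both hda9-1 libraries lay above both WT libraries, and the pwr-2 libraries lay on either side of them. CYP71B16 and CYP71B17, at 1 end, had no H3K9ac cover in any library. CYP71B19 had 1000 and 1738 bp in WT, 1938 bp in both hda9-1 libraries, with 338 and 1953 bp in pwr-2. CYP71B20 was covered over 1913 bp in both WT libraries and over its whole 2082 bp in the 4 mutant libraries.

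CYP71B21 (AT3G26190, 1645 bp) had 0 bp in both WT and both pwr-2 libraries, and 709 and 1109 bp in hda9-1. CYP71B23 had 2474 and 1874 bp in WT, 1757 and 2557 bp in hda9-1, with 74 and 2474 bp in pwr-2, so its groups overlapped. CYP71B22 had 1752 and 0 bp in WT, 1931 bp in both hda9-1 libraries, and 1379 and 1579 bp in pwr-2. CYP71B3 had 1527 and 1727 bp in WT, its whole 1998 bp in both hda9-1 libraries, and 1127 and 1327 bp in pwr-2. In the first hda9-1 library CYP71B21 and CYP71B22 shared a peak from 9584401 to 9592800 (2320 reads), and CYP71B3, CYP71B24 and most of CYP71B23 lay in a separate peak from 9593601 to 9600600 (2151 reads). In the second, a single peak from 9584001 to 9601000 (7231 reads) covered all 5 genes (chromosome 3 of TAIR10, counted from 1). Only 8.44% and 6.52% of the peaks over CYP71B21 lay in that gene, and their density was 0.612 and 0.679 times the library median. The hda9-1 libraries were also the deepest, so each library was also cut to its densest peaks of the same total length. CYP71B19 and CYP71B20 then still had more cover in both hda9-1 libraries than in both WT libraries (20.1% of protein-coding genes). CYP71B23, CYP71B3 and CYP71B24 had less in both (9.41%), and CYP71B21 and CYP71B22 were in neither group. The part of depth in the differences of this cluster was not tested.

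**Figure D4:**
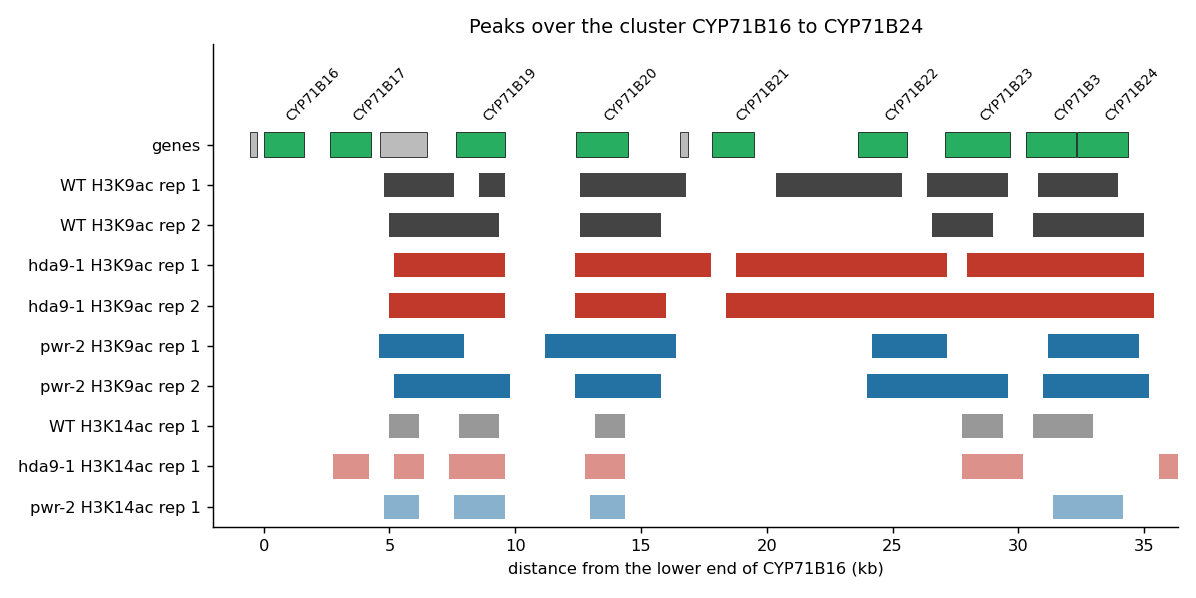
The x axis is the distance in kb from the lower end of CYP71B16; green boxes are the 9 CYP71B genes, grey boxes other annotated genes, and each row below shows the peaks of 1 library. Past 17 kb, hda9-1 has an 8400 bp and a 7000 bp H3K9ac peak in its first library and a single 17000 bp peak in its second, both libraries reaching CYP71B21, where WT and pwr-2 have no H3K9ac peak.

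In the 7 genes from CYP71B25 to CYP71B37, also on chromosome 3, cover was 48.1% and 62.6% in WT, 60.7% and 65.5% in hda9-1, with 58.9% and 60.3% in pwr-2. CYP71B4, CYP71B26, CYP71B34 and CYP71B35 were marked in all 6 H3K9ac libraries. CYP71B36 had 0 and 1693 bp in WT, so the calls of the 2 WT libraries went apart there. The libraries of each mutant overlapped those of WT in this cluster.

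The 6 CYP71A genes from CYP71A26 to CYP71A21 had 31.5% and 60.1% cover in WT, 33.4% and 35.9% in hda9-1, with 34.6% and 39.5% in pwr-2. CYP71A22 and CYP71A21, at 1 end of the cluster, held most of it and were marked in all 9 libraries. The spread in WT came from CYP71A25, CYP71A24 and CYP71A23, with 1788, 536 and 672 bp in the second WT library and 0 bp in the first. Of the cluster CYP71B5 to CYP71B32, CYP71B5 alone was covered, over 1512 and 1200 bp in WT, 1000 and 1112 bp in hda9-1, with 1112 and 1000 bp in pwr-2. All 4 mutant libraries of CYP71B5 lay below both WT libraries.

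On chromosome 5, the cluster CYP71B11 to CYP71B14 had 67.2% and 71.8% cover in WT, 80.2% and 100% in hda9-1, with 81.6% and 89.9% in pwr-2. With all peaks, both mutants thus lay above WT. CYP71B11 (AT5G25120, 2712 bp) had 2031 and 2400 bp in WT and was covered whole in the 4 mutant libraries. CYP71B14 had 0 and 308 bp in WT, 571 and 2479 bp in hda9-1, with 708 and 1508 bp in pwr-2. With peaks of equal total length per library, CYP71B11 still had more cover in both pwr-2 libraries than in both WT libraries (12.1% of protein-coding genes). That no longer held for CYP71B11 in hda9-1, nor for CYP71B14 in either mutant. CYP71B13 was covered over its whole 2434 bp in all 6 libraries, in a peak that it shared with CYP71B12 and TAF5, which encodes a subunit of the general transcription factor TFIID, in 5 of the 6.

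By a rule that asks for agreement of both libraries of each genotype, few of the genes gained or lost H3K9ac. A gene was gained where it was unmarked in both WT libraries and marked in both mutant libraries, and lost in the reverse case. In hda9-1, CYP71B21 was the 1 gene gained, against 4.21% of all protein-coding genes, and CYP71A28 and CYP71A27 were the 2 lost, against 0.506%. Seen over the genes that could change, that is 1 of 17 unmarked genes (10.2% of protein-coding genes) and 2 of 24 marked ones (1.16%). In pwr-2, 0 were gained, against 2.30%, and CYP71A28 and CYP71A27 were the 2 lost, against 0.674%. Over the genes that could change, that is 0 of 17 (5.59% of protein-coding genes) and 2 of 24 (1.54%). Both mutants were set against the same WT libraries, so these are not independent losses. CYP71A28 and CYP71A27 also lie 57 bp apart and shared 1 peak in each WT library, so the 2 genes are not separate counts. These calls have no p-value. With only the denser 75% of peaks, CYP71B21 was no longer called gained nor CYP71A28 and CYP71A27 lost. Other genes were called lost in their place, CYP71B7 and CYP71B11 in hda9-1 (1.40% of protein-coding genes), with CYP71B7 and CYP71B4 in pwr-2 (1.54%). With peaks of equal total length per library CYP71B21 and CYP71A28 were not called in either direction. Without the first WT library the losses were 5 in each mutant (2.93% of protein-coding genes in hda9-1, 3.55% in pwr-2), and without the second WT library the gains were 3 in hda9-1 (9.82%) and 2 in pwr-2 (6.14%).

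CYP71A28 (AT4G20235, 2330 bp) and CYP71A27 (AT4G20240, 2903 bp) are adjacent on chromosome 4, and CYP71A27 takes part in camalexin synthesis in roots. CYP71A28 had 2330 and 2077 bp in H3K9ac peaks in WT and 0 bp in both hda9-1 and both pwr-2 libraries. CYP71A27 had 866 and 1866 bp in WT and 0 bp in the same 4 libraries. Both WT libraries had cover on both genes and no mutant library had any. The WT peaks were thin, and each overlapped both genes. They ran from 10928801 to 10932200 with 214 reads in the first library and from 10929201 to 10932600 with 193 reads in the second. Their densities were 0.713 and 0.582 times the library median, and only 8.52% and 0.656% of the peaks of those libraries were less dense. A further WT peak, 10933601 to 10934200, held 54 reads in the second library. H3K14ac covered 2253 bp of CYP71A28 in hda9-1, in a peak of 77 reads, and 0 bp in WT and pwr-2, so the 2 marks differed in direction there.

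**Figure D5:**
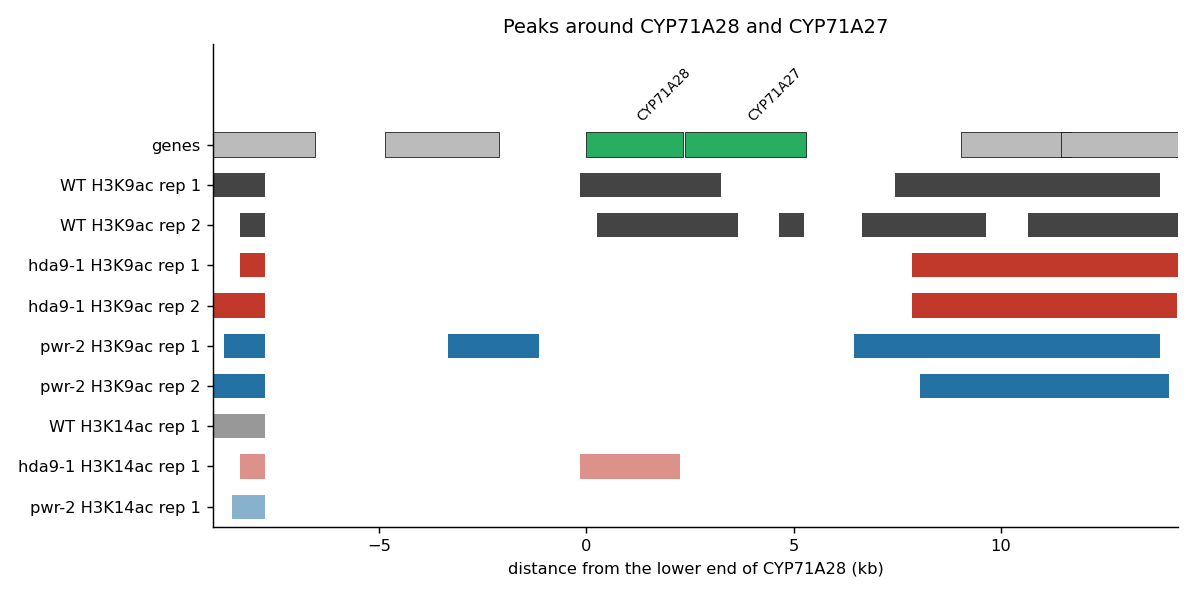
The x axis is the distance in kb from the lower end of CYP71A28; green boxes are CYP71A28 and CYP71A27, grey boxes other genes, and each row shows the peaks of 1 library. Peaks over CYP71A28 and CYP71A27 appear in both WT H3K9ac libraries, and the hda9-1 H3K14ac library has a peak over CYP71A28 alone. None of the other 6 has a peak over either gene, while the peaks at both edges of the map are present in all 3 genotypes for H3K9ac.

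The length of cover, in place of a yes or no call, moved in both directions. In hda9-1, 13 of the 34 genes with any cover had more in both mutant libraries than in both WT libraries, or 38.2%, against 26.0% of protein-coding genes. Another 3 of the 34, CYP71B5, CYP71A28 and CYP71A27, had less in both (8.82%, against 4.66%). In pwr-2, 10 of 35 had more (28.6%, against 14.3%) and 5 had less (14.3%, against 7.76%), the latter CYP71B3, CYP71B4, CYP71B5, CYP71A28 and CYP71A27. The 13 and the 10 both include CYP71B10, with 0 bp in WT and 12 bp in the mutant libraries, the edge of a peak over its neighbour AT5G57250. The summed cover of the 49 genes overlapped between each mutant and WT, while both hda9-1 libraries lay above both pwr-2 libraries, at 43597 and 50507 bp in WT, 45271 and 50621 bp in hda9-1, with 41134 and 44685 bp in pwr-2. Peaks cover more of the genome in the deeper libraries, and when each library was cut to its densest peaks of the same total length, the 13 genes with more cover in hda9-1 became 8 (20.1% of protein-coding genes), the 3 with less became 6 (9.41%), and the summed cover in hda9-1 went from 0.894 kb above WT to 13.6 kb below it. After the same cut the 10 genes with more cover in pwr-2 became 7 (12.1%) and the 5 with less became 6 (9.95%).

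Reads were also compared over regions, made by merging overlapping H3K9ac peaks of the 6 libraries. The reads of a region in a library were only those of that library's own peaks inside it. Reads outside its peaks were not counted, so these values also follow how widely peaks were called. Of 12753 regions, 8332 had a peak in all 6 libraries and entered edgeR's quasi-likelihood test. Of 24 regions over the 49 genes, 17 were tested, holding 28 genes, and 9 of the 17 also held another protein-coding gene. CYP71A28 and CYP71A27, the genes called lost, had no H3K9ac peak in the mutant libraries, so no region over them was tested. None of the 17 passed an adjusted p of 0.05 in hda9-1 against WT, pwr-2 against WT or hda9-1 against pwr-2 (background 0% of all regions called in each). At an unadjusted p under 0.05, 3, 3 and 2 of the 17 regions passed, against 12.2%, 14.7% and 3.89% of all regions. DESeq2 called 1 of the 17 in hda9-1 (against 1.85% of all regions), 1 in pwr-2 (2.80%) and 0 in the comparison of the mutants (0.336%). The median log2 change of the 17 regions was -0.10, -0.04 and -0.06, against -0.01, -0.00 and -0.00 for all regions. With reads divided by covered length, 0 of the 17 regions passed the adjusted threshold (0.0120%, 0.0120% and 0% of all regions), and 2, 5 and 1 passed the unadjusted one (11.3%, 13.6% and 4.02%).

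The region over CYP71A20 (AT4G13310) gave 875 and 670 reads in WT, 2607 and 3596 in hda9-1, with 841 and 1984 in pwr-2. Scaled for library size, as CPM, that is 487 and 335 in WT, 241 and 226 in hda9-1, with 251 and 250 in pwr-2. The WT libraries were higher than all 4 mutant libraries, with a log2 change of -0.81 ± 0.18 (SE) in hda9-1 (edgeR adjusted p = 0.264, DESeq2 adjusted p = 0.045) and -0.71 ± 0.18 in pwr-2 (edgeR adjusted p = 0.235). Most of this region lay outside CYP71A20, which the first WT library alone covered, over 2210 bp of a 10200 bp peak that spans 3 other genes. Per covered base pair the direction turned, with a log2 change of 0.18 in both mutants.

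The region over CYP71B11 held 241 and 211 reads in WT, 1915 and 2715 in hda9-1, with 732 and 1533 in pwr-2, or 134 and 105, 177 and 171, and 218 and 193 CPM. All 4 mutant libraries were above both WT libraries, by a log2 change of 0.54 ± 0.18 (SE) in hda9-1 (edgeR adjusted p = 0.335) and 0.78 ± 0.18 in pwr-2 (edgeR adjusted p = 0.235, DESeq2 adjusted p = 0.0241). Covered length moved with it, at 3200 and 2400 bp in WT, 5400 and 5800 bp in hda9-1, and 5400 bp in both pwr-2 libraries. Per covered base pair, the log2 changes were -0.22 and -0.07, so more reads came with longer peaks and not with denser ones.

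CYP71B6 showed the same combination. Its region had 216 and 172 reads in WT, 1655 and 2110 in hda9-1, with 607 and 1069 in pwr-2, over 2000 and 1400 bp, 4800 and 3600 bp, and 5400 and 3600 bp. The log2 change in reads was 0.61 ± 0.24 (SE) in pwr-2 (edgeR adjusted p = 0.322) and 0.47 ± 0.24 in hda9-1 (edgeR adjusted p = 0.477), while per covered base pair it was -0.67 and -0.58. The mutants' peaks ran on over the neighbouring gene SDR2. Over CYP71B5, with 117 and 110 reads in WT, 381 and 605 in hda9-1, with 189 and 303 in pwr-2, the log2 change in hda9-1 was -0.71 ± 0.23 (SE; edgeR adjusted p = 0.332), and per covered base pair it was -0.13.

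Between the mutants, the region over CYP71B21 to CYP71B24 was higher in hda9-1, with a log2 difference of 0.81 ± 0.21 (SE; edgeR adjusted p = 0.998). It held 414 and 454 CPM in hda9-1, with 207 and 288 in pwr-2. The WT libraries, at 382 and 271 CPM, were below both hda9-1 libraries and overlapped those of pwr-2. Covered length was 15400 and 17000 bp in hda9-1, with 6600 and 9800 bp in pwr-2. Per covered base pair the difference was -0.04. The region over CYP71B12 and CYP71B13 was lower in hda9-1 than in pwr-2, by a log2 difference of -0.39 ± 0.16 (SE; edgeR adjusted p = 0.998).

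H3K14ac calls changed for more of the genes, in single libraries. In hda9-1, 8 genes were called marked that were not in WT (against 12.4% of protein-coding genes): CYP71B29, CYP71B7, CYP71B17, CYP71B23, CYP71A25, CYP71B5, CYP71A28 and CYP71B12. CYP71B23 already had 1600 bp of H3K14ac cover in WT, against 1883 bp in hda9-1, and only the cover of its ends changed the call. Another 8 were marked in WT only of that pair (against 5.37%): CYP71B3, CYP71B24, CYP71B25, CYP71B36, CYP71A23, CYP71A19, CYP71A16 and CYP71B10. As a share of the genes that could change, 8 of 32 were gained, against 20.8%, and 8 of 17 lost, against 13.3%. In pwr-2, 4 genes were gained (against 13.0%), CYP71B7, CYP71A25, CYP71B11 and CYP71B13, of which CYP71B13 had 1000 bp of cover in WT and 1949 bp in pwr-2. The 5 lost (against 4.80%) were CYP71B25, CYP71A23, CYP71A19, CYP71A16 and CYP71B10. Of the genes that could change these were 4 of 32 (21.8%) and 5 of 17 (11.9%). All of these calls rest on 1 WT library of 667780 reads in peaks.

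CYP71A16 (AT5G42590, 2777 bp), the marneral oxidase, had 1377 bp of H3K14ac in WT, in a peak of 58 reads, and 0 bp in hda9-1 and pwr-2. It had no H3K9ac cover in any library. Its partner MRN1, the marneral synthase gene beside it, had 3193 and 3445 bp of H3K9ac in WT, 2245 and 0 bp in hda9-1, with 2445 and 2400 bp in pwr-2. CYP71A19 had 2853 bp of H3K14ac in WT and 0 bp in both mutants, while its H3K9ac cover was 2118 and 2853 bp in WT, 2853 bp in both hda9-1 libraries, and 2853 and 1518 bp in pwr-2. CYP71B10 was called through a peak that lay mostly over its neighbour AT5G57250. CYP71B17 and CYP71B25 carried H3K14ac in 1 library each, 1400 bp in hda9-1 and 1400 bp in WT, and H3K9ac in none.

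Other genes tied to these enzymes were described by the same rule. Of 102 genes with symbols of other CYP71-clan families, 27 and 41 carried H3K9ac in WT, 25 and 30 in hda9-1, with 19 and 25 in pwr-2, and 16 were marked in all 6 libraries (15.7%, against 42.9% of the CYP71A and CYP71B genes). For H3K9ac in hda9-1, CYP76C3 and CYP78A6 of these were gained (against 4.21% of protein-coding genes) and CYP705A3 was lost (0.506%). In pwr-2 none was gained (2.30%), and CYP705A3 and CYP77A5P were lost (0.674%). Their H3K14ac calls, in single libraries, were 13 gained and 12 lost in hda9-1 (12.4% and 5.37%), with 16 and 12 in pwr-2 (13.0% and 4.80%). Of 8 genes for redox partners of P450 enzymes (reductases and cytochrome b5 proteins), 7 were marked in all 6 H3K9ac libraries (against 39.8% of protein-coding genes). For this mark CB5-C was gained in hda9-1 (against 4.21%). Of 10 genes of the indole-3-acetaldoxime and camalexin pathway, 6 and 7 were marked in WT, 4 and 6 in hda9-1, and 4 in both pwr-2 libraries, with none gained or lost for H3K9ac. For H3K14ac, GSTF6 and CYP79B2 were gained in hda9-1 and in pwr-2 (against 12.4% and 13.0% of protein-coding genes), each against the same WT library. WRKY33, a transcription factor that activates camalexin genes, was covered in all 9 libraries.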

How the data were processed

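The submitters' processing notes name Bowtie, SICER and the TAIR10 build; versions, thresholds and duplicate handling are not given in these sources. The deposited lists give each peak's position and a count, called per library by the authors. The lists have no header, and the count was taken as reads from its values. Gene names, neighbours and ends came from RefSeq (TAIR10.1, no strand), so only peak positions are printed. In 45 of 45 combinations of library and chromosome, gene cover was highest with no shift.

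Cover and calls were computed from all peaks. Region counts were tested with edgeR 4.0.16 (TMM, quasi-likelihood, Benjamini-Hochberg over 8332 regions, all 6 H3K9ac libraries in 1 fit), with DESeq2 1.42.0 as an alternative. In simulated data for hda9-1 against WT, the test called 8% of 1.5-fold, 54% of 2-fold and 100% of 4-fold rises and 48% of falls to 0.5-fold. Replicates differed beyond sampling noise (chi-square per degree of freedom 9.82 to 24.7), and p-values measure only the spread between these samples.

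Genes and lists were chosen with earlier results of these data known. Named genes were those gained or lost, marked in all libraries, most covered in WT, under an unadjusted p of 0.05, of known role or in clusters of 4 or more. The comparison of non-overlapping cover was added after values were seen.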

Additional observations from a re-analysis of the deposited data

How the results depend on the processing

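Calls depended on the peak threshold, the marking rule and single libraries. H3K9ac gains in hda9-1 (1) became 2 under any overlap of 1 bp or 80% of a gene end (3.72% and 5.74% of protein-coding genes). They were 0 with the denser 75% of peaks or equal covered length (4.35% and 2.58%). When 1 library was left out they ranged from 1 to 3 (5.22% to 9.82%). Losses in hda9-1 (2) became 1 under 50% of the whole gene and 5 with equal covered length (CYP71B23, CYP71B3, CYP71B24, CYP71A19 and CYP71A27), and ranged from 2 to 5, the 5 without the first WT library. In pwr-2, gains (0) became 2, 1 and 1 under any overlap, 80% of an end and the whole gene (2.04%, 3.51% and 1.41%). Without 1 library they ranged from 0 to 2 (3.98% to 6.14%). Losses in pwr-2 (2) became 1 under the whole gene (1.31%). With equal covered length they were 3 (1.55%), CYP71B23, CYP71A19 and CYP71A27. They ranged from 2 to 5 without 1 library (1.02% to 3.55%), the 5 without the first WT library. CYP71A28 and CYP71A27 were not called with the denser 75% of peaks. There the 2 losses were CYP71B7 and CYP71B11 in hda9-1 (1.40%), with CYP71B7 and CYP71B4 in pwr-2 (1.54%). H3K14ac gains and losses with the denser peaks were 3 and 1 in hda9-1 (12.3% and 6.39%), with 2 and 0 in pwr-2 (12.5% and 6.02%). Equal covered length gave 1 and 9 in pwr-2 (10.5% and 6.82%). The denser peaks marked 15 and 18 genes in WT for H3K9ac (36.8% and 39.6% of protein-coding genes). They marked 11 and 12 in hda9-1 (43.4% and 45.7%), with 6 and 13 in pwr-2 (39.0% and 43.1%). For H3K14ac they marked 4, 6 and 6 (28.6%, 34.5% and 35.1%). Equal covered length marked 17 in both hda9-1 H3K9ac libraries (50.3% and 50.0% of protein-coding genes) and 9 for H3K14ac in pwr-2 (44.0%). Under 80% of an end, 10 were marked for H3K14ac in hda9-1 (34.3%). Summed cover in hda9-1 minus WT (0.894 kb) was -13.6 kb with equal covered length and ranged from -2.56 kb to 4.35 kb without 1 library, with -1.78 kb without the second hda9-1 library; pwr-2 minus WT (-4.14 kb) was -10.4 kb with equal covered length and ranged from -7.60 kb without the first WT library to -0.688 kb without the second. Genes with non-overlapping cover were an alternative chosen after seeing the data. With equal covered length, those with more in hda9-1 went from 13 (26.0% of protein-coding genes) to 8 (20.1%). Those with less went from 3 (4.66%) to 6 (9.41%), and the lost calls of CYP71A28 ended in both mutants. DESeq2 called 1 region in each mutant against WT (CYP71A20 in hda9-1, log2 -0.81; CYP71B11 in pwr-2, 0.78). Per covered base pair the change reversed over CYP71A20 (0.18 in both mutants), CYP71B11 (-0.22 in hda9-1, -0.0679 in pwr-2), CYP71B6 (-0.67 in pwr-2) and CYP71B21 to CYP71B24 (-0.0433 between the mutants). The cause was not tested.

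With the replicate number as a block, 0 regions over these genes passed in any of the 3 comparisons, as without it. Deviations of same-numbered libraries correlated at 0.08, 0.172 and 0.163, and the libraries share only a number.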
